A study of Homo sapiens with 8 samples.

Results

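The interleukin 1 (IL1) family genes described here were 3 cytokines, IL1A, IL1B and IL18, the receptor subunits IL1R1 and IL1RAP, and the receptor-associated kinases IRAK1 and IRAK2. They were found by their Ensembl identifiers, and all 7 of 7 were present among the 36715 genes of the count table. The study profiled MDA-MB-231, a human triple-negative breast cancer cell line, by RNA-seq. Cells received EMD37 at 0.5 µM or its solvent DMSO (vehicle), and 4 groups of 2 libraries, marked A and B, were made: EMD37 for 12 h, vehicle for 12 h, EMD37 for 24 h and vehicle for 24 h. All cells were grown in DMEM with serum, L-glutamine and antibiotics. The labels named no other agent, and they did not say whether libraries A and B came from separate cultures. The p-values below set differences against the spread between libraries, estimated over all groups together, and may not extend to new cultures.

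IL-1α and IL-1β, the products of IL1A and IL1B, bind the same receptor chain, IL1R1, which then recruits the accessory chain IL1RAP. The receptor tails assemble MYD88 with the IRAK kinases, TRAF6 and the TAK1 kinase complex, which leads to activation of NF-kB and the transcription of cytokines, chemokines and proteases. IL-18 uses its own receptor and the same adaptor. IL-1β and IL-18 are made as precursors that need proteolytic cleavage, whereas the IL-1α precursor is already active, and RNA levels do not report on any of these steps.

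IL1A (ENSG00000115008) lies on the minus strand of chromosome 2 at positions 112773915 to 112784590 of GRCh38. IL1B (ENSG00000125538) lies on the same strand at 112829751 to 112836903, and 45160 bases separate the genes. IL18 (ENSG00000150782) is on chromosome 11 at 112143251 to 112164117, minus strand. IL1R1 (ENSG00000115594) is on the plus strand of chromosome 2 at 102064544 to 102179874. IL1RAP (ENSG00000196083) and IRAK2 (ENSG00000134070) are both on the plus strand of chromosome 3, at 190514051 to 190659750 and at 10164865 to 10243743. IRAK1 (ENSG00000184216) is on the minus strand of chromosome X at 154010500 to 154019980. The library kit did not mark strand, so reads from overlapping genes could not be assigned by strand. Other annotated genes on either strand covered 0% of the exonic bases of IL1A, IL1B, IL18 and IRAK2, 0.155% of IL1R1, 1.525% of IRAK1 and 4.629% of IL1RAP. The genes that overlapped IRAK1 and IL1RAP lay on the same strand as these members, where a strand mark would not separate them. IL1R1-AS1 lay on the strand opposite to IL1R1.

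The sequences shown are those just before the outermost annotated starts of IL1A, IL1B and IRAK2, the genes whose RNA changed most, together with the only motif matches found. RefSeq promoters of GRCh38.p14 matched 6 of the 7 genes at 10 start sites, and IL18 was not among them. In the 250 bases before each start, both strands were searched for a kappaB motif (GGNNTTTCC), an AP-1 motif (TGANTCA) and a C/EBP-ATF element (TGATGCAA). Capitals mark AP-1 matches.
IL1A AP-1 match, chr2:112784489-112784515, minus strand: cgaagaagacTGACTCAggcttaagct
IL1A AP-1 match, chr2:112784439-112784465, minus strand: cattggcgttTGAGTCAgcaaaggtat
IL1A upstream, chr2:112784591-112784743, minus strand: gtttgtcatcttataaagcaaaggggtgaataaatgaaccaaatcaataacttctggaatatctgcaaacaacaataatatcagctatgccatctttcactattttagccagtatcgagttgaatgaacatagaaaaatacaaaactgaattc
IL1B upstream, chr2:112836904-112837029, minus strand: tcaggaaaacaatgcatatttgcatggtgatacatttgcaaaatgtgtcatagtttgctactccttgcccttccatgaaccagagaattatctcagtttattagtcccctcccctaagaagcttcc
IRAK2 upstream, chr3:10164669-10164864, plus strand: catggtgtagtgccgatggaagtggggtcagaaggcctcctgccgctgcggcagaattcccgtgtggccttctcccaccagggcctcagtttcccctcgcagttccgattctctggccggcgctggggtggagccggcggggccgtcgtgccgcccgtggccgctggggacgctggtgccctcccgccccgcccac
The IL1A matches began at -105 and -55 relative to the second of its RefSeq starts, and the first of them also lay at -12 of the other start. Both matches lay inside the annotated IL1A gene, whose outermost start is at 112784590 on the minus strand. Of 35116 RefSeq promoters, 6.57% held the AP-1 motif, 5.48% the kappaB motif and 0.772% the C/EBP-ATF element in the same window. No kappaB or C/EBP-ATF letters were found in these windows for the 6 genes, and a match or its lack is a description of letters and not of binding.

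The shallowest library held 8.99 M counted reads and the deepest 11.44 M (M, mega), and 14850 genes passed the filter on low counts. Correlations of log2 values between libraries A and B of a group ran from 0.988 to 0.992. Levels are given as CPM, read counts scaled to a common library size. The mesenchymal and line markers VIM, CD44, EGFR, AXL, CAV1, MSN, ANXA1 and KRT18 were all detected, with summed levels of 6830 to 7120 CPM after EMD37 for 24 h and 7788 to 8251 CPM in vehicle at 24 h. ESR1, PGR and ERBB2, whose low levels define the triple-negative class, did not exceed 5.18 CPM. The 15 leukocyte markers, from cells that make IL1 cytokines in tissue, summed to 4.28 to 5.53 CPM after EMD37 for 12 h and 3.76 to 4.62 CPM in vehicle at 12 h. At 24 h they summed to 3.86 to 4.65 CPM after EMD37 and 4.63 to 5.28 CPM in vehicle. LYZ had no read in any library, 9 of the 15 never had more than 3 reads, and the 1 that was tested, CSF1R, was not called in any comparison. In bulk RNA, fewer cells of a type and less RNA per cell cannot be told apart.

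EMD37 was compared with vehicle at each time to ask which members of the family changed. IL1A, IL1B and IRAK2 rose at 12 h, and IL1A, IRAK2 and, by a small margin, IL1RAP rose at 24 h. IL18, IL1R1 and IRAK1 were not called at either time, and no member fell. All 7 genes passed the filter on low counts, and IL1A and IL1B passed it on their vehicle libraries alone, which held at least 13 reads each. At 12 h 3 of 7 members were called (42.9%), all of them higher, against 8.70% of all genes tested (5.27% higher and 3.43% lower). At 24 h 3 of 7 were again called, all higher, against 40.7% of all genes tested (19.6% higher and 21.1% lower), so the count at 24 h was near that background. The median log2 fold change of the 7 was 0.22 at 12 h and 0.38 at 24 h, beside -0.01 and -0.03 for all genes tested. A gene was called at an adjusted p below 0.05 in the quasi-likelihood test of edgeR, with Benjamini-Hochberg adjustment over all genes tested.

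**Figure D1:**
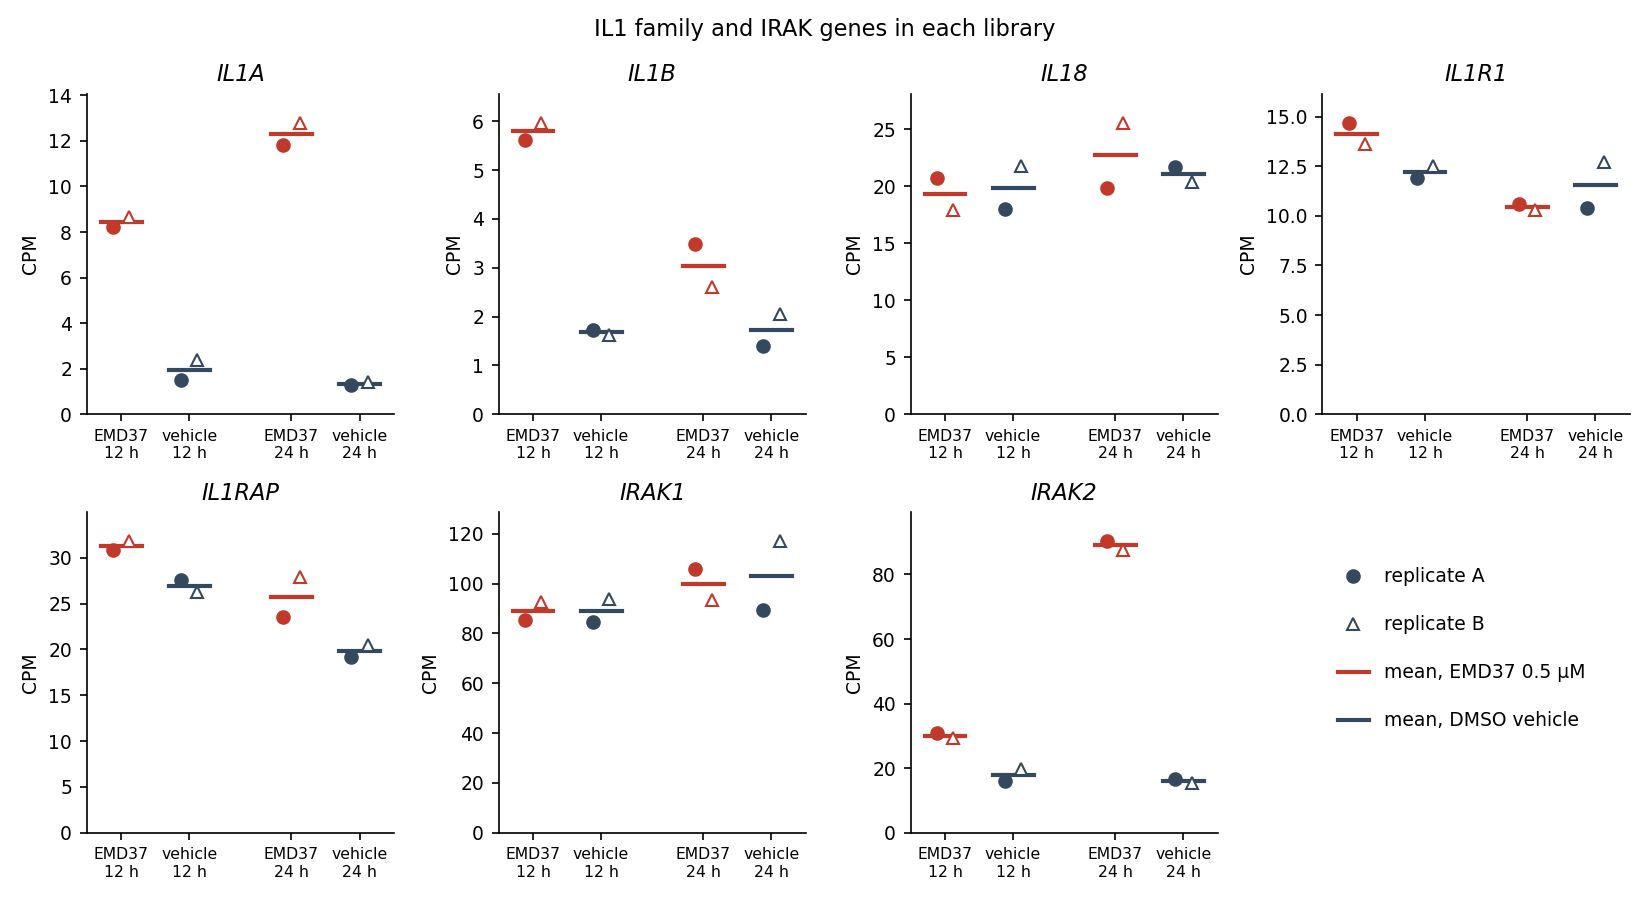
CPM of each of the 7 genes in each of the 8 libraries, with a panel and a linear axis from 0 for each gene. Circles are library A, triangles library B and bars the mean of both; IL1A and IRAK2 stand apart from vehicle at both times, IL1B most at 12 h, with means of 8.43, 30.1 and 5.8 CPM for IL1A, IRAK2 and IL1B after EMD37 for 12 h.

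IL1A, which encodes IL-1α, had 8.2 and 8.66 CPM in EMD37 libraries A and B at 12 h, against 1.52 and 2.39 CPM in vehicle libraries at 12 h. These values rest on 89 and 87 reads after EMD37 and on 15 and 28 reads in vehicle. Both EMD37 libraries lay above both vehicle libraries, and IL1A rose 4.22-fold (log2 2.08 ± 0.25 SE, 95% interval 1.55 to 2.60, edgeR adjusted p = 2.66e-05). At 24 h IL1A had 11.8 and 12.8 CPM in EMD37 libraries, against 1.3 and 1.4 CPM in vehicle libraries, from 112 and 133 reads and from 14 and 13 reads. The groups did not overlap, and the rise was 9.11-fold (log2 3.19 ± 0.26 SE, 95% interval 2.63 to 3.74, edgeR adjusted p = 7.26e-08). Of the 7 genes IL1A had the largest fold at 24 h, but its interval there overlapped that of IRAK2, 2.20 to 2.73. At 12 h its interval overlapped that of IL1B, and without vehicle library A of 12 h the log2 fold change was 1.82 for IL1A and 1.84 for IL1B. Its effect at 24 h exceeded that at 12 h by 1.11 on the log2 scale, which did not pass the test of that difference (edgeR adjusted p = 0.0669), although it did without vehicle library A of 12 h (log2 1.38, edgeR adjusted p = 0.0487). Without vehicle library B of 12 h the difference was 0.75 (edgeR adjusted p = 0.364), and DESeq2 gave an adjusted p of 0.169.

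IL1B, which encodes IL-1β, had 5.62 and 5.97 CPM in EMD37 libraries at 12 h, against 1.73 and 1.62 CPM in vehicle libraries at 12 h, from 61 and 60 reads and from 17 and 19 reads. Libraries of a group were close to each other and the groups did not overlap. The rise was 3.45-fold (log2 1.78 ± 0.29 SE, 95% interval 1.17 to 2.40, edgeR adjusted p = 0.000618). At 24 h IL1B had 3.48 and 2.61 CPM in EMD37 libraries, against 1.39 and 2.05 CPM in vehicle libraries, from 33 and 27 reads and from 15 and 19 reads. Both EMD37 libraries were again the higher ones, but by less. The log2 fold change was 0.83 ± 0.32 SE with a 95% interval of 0.15 to 1.52 (edgeR adjusted p = 0.0506), just outside the threshold. It was within the threshold without vehicle library B of 24 h, at a log2 fold change of 1.12 (edgeR adjusted p = 0.0332), and under DESeq2's size factors (edgeR adjusted p = 0.0437) or with recovered reads added (edgeR adjusted p = 0.0448). It was farther from the threshold without vehicle library A of 24 h (log2 0.59, edgeR adjusted p = 0.271), without EMD37 library A of 24 h (0.63, edgeR adjusted p = 0.254) and with DESeq2 (adjusted p = 0.199). The effect at 24 h minus that at 12 h was -0.95 on the log2 scale (95% interval -1.9 to -0.01), and the difference was not called (edgeR adjusted p = 0.167). The neighbouring cytokine genes had point estimates of opposite sign for that difference, 1.11 for IL1A and -0.95 for IL1B, neither of which was called.

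IL18, which encodes a cytokine that acts through a separate receptor pair, had 20.7 and 17.9 CPM in EMD37 libraries at 12 h, against 18 and 21.8 CPM in vehicle libraries. At 24 h it had 19.9 and 25.6 CPM in EMD37 libraries, against 21.7 and 20.4 CPM in vehicle libraries. The groups overlapped at both times. Its log2 fold changes were -0.04 (95% interval -0.38 to 0.29, edgeR adjusted p = 0.908) at 12 h and 0.11 (95% interval -0.22 to 0.44, edgeR adjusted p = 0.607) at 24 h. The upper bounds of 0.29 and 0.44 lay below the lower bounds for IL1A, 1.55 and 2.63.

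Of the receptor chains, IL1R1, the ligand-binding subunit, had 14.7 and 13.6 CPM in EMD37 libraries at 12 h, against 11.9 and 12.5 CPM in vehicle libraries. At 24 h IL1R1 had 10.6 and 10.3 CPM in EMD37 libraries, against 10.4 and 12.7 CPM in vehicle libraries. EMD37 libraries were the higher pair at 12 h and lay within the vehicle range or just below it at 24 h. Neither log2 fold change was called, at 0.21 (95% interval -0.13 to 0.56, edgeR adjusted p = 0.482) and at -0.14 (95% interval -0.5 to 0.22, edgeR adjusted p = 0.556).

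IL1RAP, the accessory chain that IL1R1 shares with other receptors of the family, had 30.8 and 31.8 CPM in EMD37 libraries at 12 h, against 27.6 and 26.3 CPM in vehicle libraries. The groups did not overlap, but the log2 fold change of 0.22 (95% interval -0.05 to 0.48) was not called (edgeR adjusted p = 0.327). At 24 h IL1RAP had 23.5 and 27.9 CPM in EMD37 libraries, against 19.2 and 20.5 CPM in vehicle libraries. It rose 1.3-fold (log2 0.38 ± 0.13 SE, 95% interval 0.1 to 0.66, edgeR adjusted p = 0.0291). The call was lost with DESeq2 (adjusted p = 0.0762), without a filter on low counts (adjusted p = 0.0663) and in a fit of the 24 h groups alone (adjusted p = 0.08). It was also lost without EMD37 library B of 24 h (log2 0.25, edgeR adjusted p = 0.277), without vehicle library A of 24 h (0.36, edgeR adjusted p = 0.0614) and without EMD37 library A of 12 h (0.37, edgeR adjusted p = 0.0505).

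IRAK1, a kinase recruited to the activated receptor, had 85.2 and 92.5 CPM in EMD37 libraries at 12 h, against 84.4 and 93.9 CPM in vehicle libraries. At 24 h IRAK1 had 106 and 93.5 CPM in EMD37 libraries, against 89.2 and 117 CPM in vehicle libraries. At both times the EMD37 values lay within the vehicle range. The log2 fold changes were -0.01 (95% interval -0.25 to 0.23, edgeR adjusted p = 0.981) at 12 h and -0.05 (95% interval -0.29 to 0.19, edgeR adjusted p = 0.782) at 24 h.

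IRAK2 is a related member of the IRAK family that takes part in sustained signalling from the receptor. It had 31 and 29.2 CPM in EMD37 libraries at 12 h, against 16 and 19.8 CPM in vehicle libraries. The groups did not overlap and IRAK2 rose 1.67-fold (log2 0.74 ± 0.13 SE, 95% interval 0.47 to 1.01, edgeR adjusted p = 0.000971). At 24 h IRAK2 had 90.3 and 87.7 CPM in EMD37 libraries, against 16.8 and 15.3 CPM in vehicle libraries. All vehicle libraries of both times were below 20 CPM, and the rise at 24 h was 5.52-fold (log2 2.47 ± 0.12 SE, 95% interval 2.20 to 2.73, edgeR adjusted p = 1.91e-10).

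**Figure D2:**
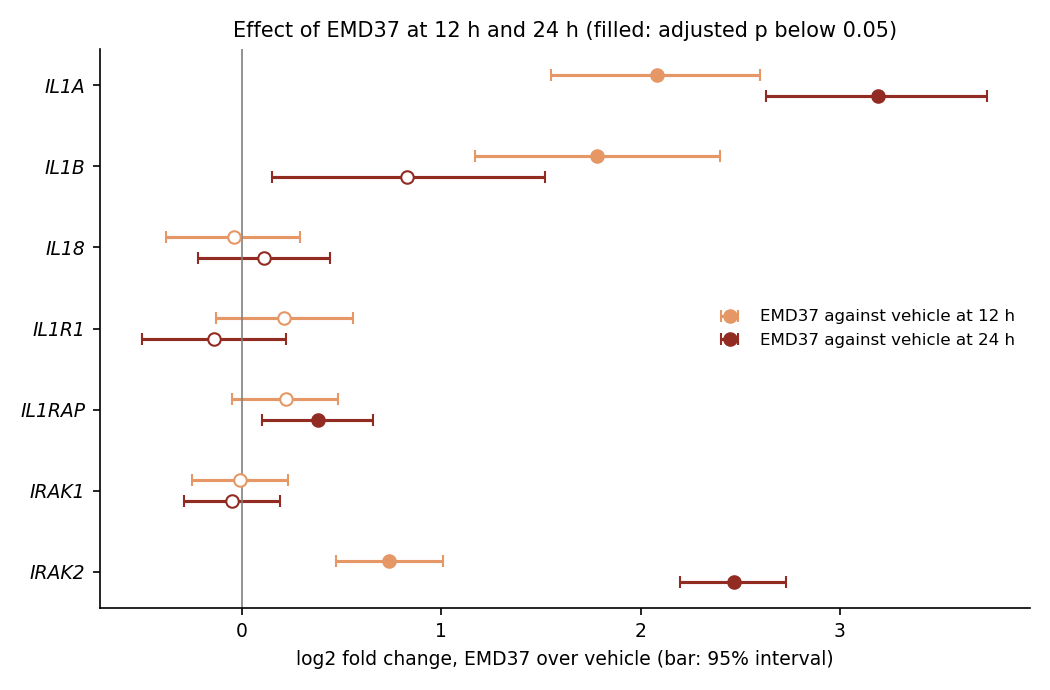
Log2 fold change of EMD37 over vehicle for each of the 7 genes, at 12 h in orange and at 24 h in dark red, with 95% intervals from the fit as bars. Filled points passed an adjusted p below 0.05: IL1A, IL1B and IRAK2 at 12 h, and IL1A, IL1RAP and IRAK2 at 24 h; the IRAK2 intervals at 12 h (0.47 to 1.01) and at 24 h (2.20 to 2.73) do not overlap.

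Whether the effect of EMD37 differed between the times was tested by the treatment by time interaction. IRAK2 was the 1 of 7 members called, with a larger effect at 24 h, against 15.9% of all genes tested (7.96% higher and 7.94% lower). Its log2 fold change was 1.72 ± 0.18 SE higher at 24 h than at 12 h (95% interval 1.35 to 2.10, edgeR adjusted p = 8.1e-06). Without vehicle library A of 12 h the count was 2, with IL1A added.

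Vehicle at 24 h was set against vehicle at 12 h to show how the genes behaved without EMD37. By edgeR 0 of 7 members were called, against 5.99% of all genes tested (2.75% higher and 3.25% lower), while 1 of 7, IL1RAP, had an unadjusted p below 0.05, and DESeq2 called 0. IL1RAP had 19.2 and 20.5 CPM in vehicle at 24 h, against 27.6 and 26.3 CPM in vehicle at 12 h, without overlap. Its log2 fold change was -0.44 (edgeR adjusted p = 0.0542). With DESeq2's size factors in edgeR it was called, at -0.46 (adjusted p = 0.0464). IRAK1 was called only without vehicle library A of 24 h, at a log2 fold change of 0.38 (edgeR adjusted p = 0.00518). IL1A and IL1B were at log2 fold changes of -0.56 (edgeR adjusted p = 0.347) and 0.02 (edgeR adjusted p = 0.978).

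Levels of different genes were set side by side as CPM per kilobase, with length counted over all annotated exons of a gene. On that length, in vehicle at both times IRAK1 was the highest, at 25.8 ± 4.99 (SD, n = 2) CPM per kb at 24 h and 22.3 ± 1.67 (SD, n = 2) CPM per kb at 12 h, followed by IL18, IRAK2, IL1RAP, IL1R1, IL1A and IL1B. At 12 h all neighbours in that order were separate, and at 24 h IL1RAP overlapped IL1R1 and IL1A overlapped IL1B. IL1A and IL1B were the lowest of the 7, at 0.635 ± 0.0349 and 0.555 ± 0.15 CPM per kb in vehicle at 24 h (SD, n = 2 each). After EMD37 for 12 h the order on that length was IRAK1, IRAK2, IL18, IL1A, IL1RAP, IL1R1 and IL1B, with IL1R1 and IL1B overlapping and IL1A at 3.97 ± 0.152 CPM per kb (SD, n = 2). After EMD37 for 24 h IRAK2 and IRAK1 overlapped at the top, at 25.5 ± 0.533 and 25 ± 2.26 CPM per kb (SD, n = 2 each), and IL18, IL1A, IL1RAP, IL1R1 and IL1B followed. Several of these positions turned when the length of the longest transcript was used instead. After EMD37 for 12 h, IL18 was then above IRAK2, IL1RAP (5.69 and 5.88 CPM per kb) above IL1A (3.86 and 4.08 CPM per kb), and IL1B above IL1R1. In vehicle on that scale, IL1B was above IL1A at 24 h and overlapped it at 12 h, IL1RAP was above IL1R1 without overlap at 24 h, and IRAK2 overlapped IL1RAP at 12 h. After EMD37 for 24 h, IL1R1 and IL1B overlapped. IRAK1 stayed highest in vehicle, IRAK1 and IRAK2 overlapped after EMD37 for 24 h, and IL1A was below both receptor chains in vehicle on either length.

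The ratio of IRAK2 to IRAK1 per kb was 0.974 and 1.08 in EMD37 libraries at 24 h, against 0.217 and 0.15 in vehicle libraries at 24 h. At 12 h it was 0.417 and 0.362 in EMD37 libraries, against 0.217 and 0.243 in vehicle libraries. The ratio was higher in EMD37 than in vehicle libraries at both times, and near 1 only after EMD37 for 24 h. For the cytokines, the ratio of IL1A to IL1B per kb was 4.93 and 7.17 in EMD37 libraries at 24 h, against 1.36 and 0.997 in vehicle libraries at 24 h. At 12 h it was 2.12 and 2.11 in EMD37 libraries, against 1.29 and 2.15 in vehicle libraries, and the groups overlapped. The exon length used covers 8 annotated transcripts of IL1B and 1 of IL1A. By the longest transcript the ratio of IL1A to IL1B was 2.61 and 3.78 in EMD37 libraries at 24 h, against 0.717 and 0.525 in vehicle libraries at 24 h, and 1.12 and 1.11 in EMD37 libraries at 12 h, against 0.678 and 1.13 in vehicle libraries at 12 h. These ratios are descriptions and were not tested.

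**Figure D3:**
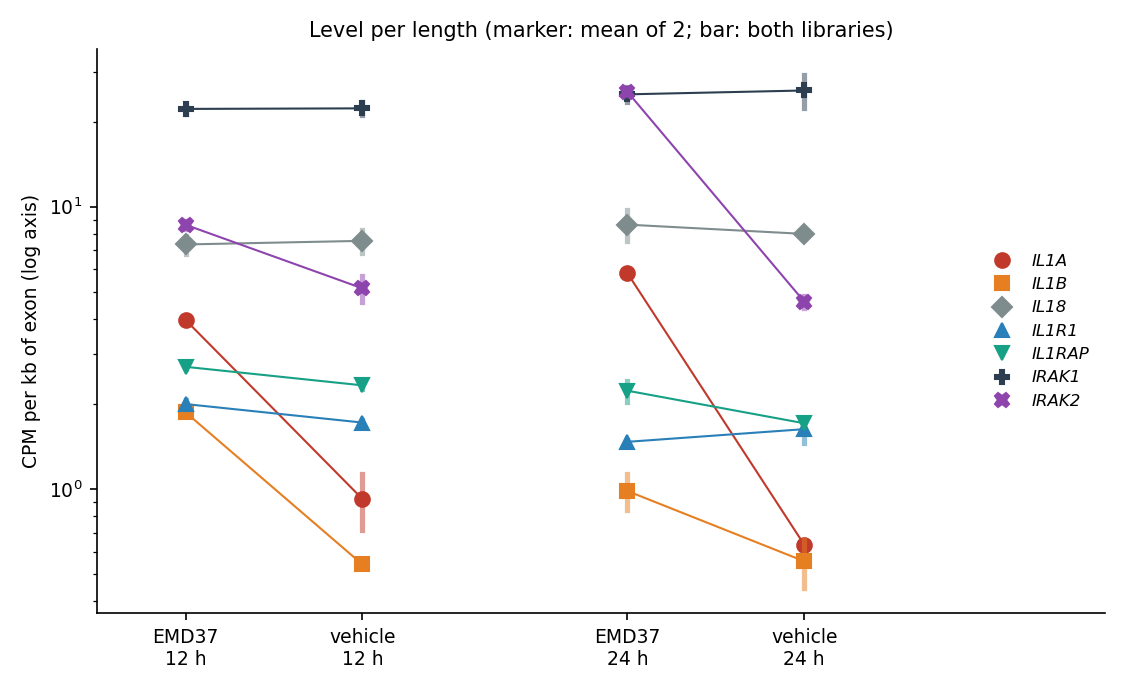
Mean CPM per kilobase of the 7 genes in each group, with length counted over all annotated exons, on a log axis, with vertical bars that span both libraries; lines join EMD37 and vehicle of the same time. IRAK2 meets IRAK1 after EMD37 for 24 h at 25.5 and 25 CPM per kb, and on this length IL1A lies above IL1RAP and IL1R1 after EMD37 and below them in vehicle; by the longest transcript it lies below IL1RAP after EMD37 for 12 h.

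The genes whose pattern over the 8 libraries was most like each member were found by the distance between centred log2 CPM values among 14850 genes. They share libraries and treatment with the members, so the correlations are descriptions. Nearest to IL1A were CTH, an enzyme of cysteine synthesis, at a distance of 0.64 (r = 0.988), TRAF1, a signalling adaptor, at 0.75 (r = 0.979) and KLF9, a transcription factor, at 0.85 (r = 0.98). CTH differed between EMD37 and vehicle by 2.96 at 24 h and 1.53 at 12 h on the log2 scale, and TRAF1 by 3.09 and 1.84. Nearest to IL1B were FICD, an enzyme that modifies the endoplasmic reticulum chaperone BiP, at 0.40 (r = 0.981), ATP6V1C2, a proton pump subunit, at 0.45 (r = 0.98), and SYVN1, a ubiquitin ligase of endoplasmic reticulum-associated degradation, at 0.47 (r = 0.973). Each of these had a smaller log2 difference at 24 h than at 12 h, 1.01 and 1.63 for FICD, 0.59 and 1.47 for ATP6V1C2, and 0.86 and 1.75 for SYVN1. Nearest to IRAK2 were SLC2A3, a glucose transporter, at 0.38 (r = 0.991), HAS2, a hyaluronan synthase, at 0.40 (r = 0.99), and SLC3A2, an amino acid transporter subunit, at 0.42 (r = 0.989). These 3 had log2 differences of 2.38 to 2.54 at 24 h and 0.65 to 0.93 at 12 h. Nearest to IL1RAP was GALNT3, a glycosyltransferase, at 0.14 (r = 0.985). For IL18, IL1R1 and IRAK1, which varied little, the nearest were HSPA14 (r = 0.875), MYO10 (r = 0.941) and SNRNP70 (r = 0.978).

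The rest of the family had too few reads to be tested or was not called. Of the 8 other ligands and ligand antagonists, none had enough reads to be tested, and together they had 0 to 8 reads in a library. IL33 and IL36RN had no read in any library, and IL1RN, the IL1 receptor antagonist, had at most 2. Of 9 other receptors and decoys, 4 were tested. By edgeR 0 were called at 12 h, against 8.70% of all genes tested, while 1 had an unadjusted p below 0.05 and DESeq2 called 0. At 24 h 0 were called by either tool, against 40.7% of all genes tested by edgeR, and 0 had an unadjusted p below 0.05. IL1RL2, the receptor of the IL-36 cytokines, had 1.97 ± 0.175 CPM after EMD37 for 12 h and 0.92 ± 0.151 CPM in vehicle at 12 h (SD, n = 2 each, edgeR adjusted p = 0.105). Its log2 fold change was 1.07 (95% interval 0.25 to 1.89) at 12 h. At 24 h it was 0.4 (95% interval -0.4 to 1.21, edgeR adjusted p = 0.432). Both EMD37 libraries lay above both vehicle libraries at each time. IL18BP, a secreted protein that binds IL-18, had 6.54 ± 1.06 CPM after EMD37 for 24 h and 6.57 ± 0.916 CPM in vehicle at 24 h (SD, n = 2 each, edgeR adjusted p = 0.989). SIGIRR, a negative regulator of the receptors, and IL1RAPL1, a relative expressed mainly in neurons, had log2 fold changes of -0.22 (edgeR adjusted p = 0.86) and -0.14 (edgeR adjusted p = 0.678) at 12 h. At 24 h they had -0.42 (edgeR adjusted p = 0.563) and -0.03 (edgeR adjusted p = 0.916). IL1RL2 rests on 8 to 21 reads per library and SIGIRR on 7 to 24, so a change could have been missed. The IL-18 receptor chains were low, with 3 to 9 reads per library for IL18R1 and 0 to 3 for IL18RAP.

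Among 23 genes of signalling below the receptor, 21 were in the count table and tested. At 12 h 0 were called by edgeR, against 8.70% of all genes tested, and 0 by DESeq2, while 5 had an unadjusted p below 0.05. The edgeR count was 5 without vehicle library A or B of 24 h, and 6 in a fit of the 12 h groups alone. At 24 h 6 rose and 2 fell, with a median log2 fold change of 0.12, and DESeq2 called 5. The 8 called were 38.1% of the list, near the 40.7% of all genes tested. TOLLIP, an inhibitory adaptor of the pathway, had 61.9 ± 2.14 CPM after EMD37 and 30.4 ± 7.84 CPM in vehicle (SD, n = 2 each), a rise of 1.03 ± 0.15 SE on the log2 scale (edgeR adjusted p = 4.02e-05). TRAF6, the ubiquitin ligase below the IRAK kinases, rose by 0.64 ± 0.11 SE (edgeR adjusted p = 0.000145), with 61.0 ± 2.84 CPM after EMD37 and 39.1 ± 3.76 CPM in vehicle (SD, n = 2 each). TAB2 and TAB3, adaptors of the TAK1 kinase, rose by 0.55 ± 0.07 SE and 0.59 ± 0.09 SE, and TIFA, a TRAF6-binding adaptor, by 0.52 ± 0.10 SE, all within the edgeR threshold. The 2 that fell were TAB1, another TAK1 adaptor, by 0.54 ± 0.19 SE (edgeR adjusted p = 0.0296), and UBE2N, a ubiquitin-conjugating enzyme, by 0.24 ± 0.08 SE (edgeR adjusted p = 0.0254). MYD88, the adaptor of the receptors, had log2 fold changes of -0.24 at 24 h (edgeR adjusted p = 0.69) and -0.36 at 12 h (edgeR adjusted p = 0.688). These rest on few reads, at 1.00 to 1.47 CPM in the group means, so a change could have been missed. TAB1, UBE2N and MYD88 are named here after their values were seen.

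Among 23 genes of cytokine maturation and release, 17 were tested. Of these, 11.8% were called at 12 h (5.9% higher and 5.9% lower), near the 8.70% of all genes tested (5.27% higher and 3.43% lower). At 12 h 1 rose and 1 fell, while 0 were called without vehicle library B or EMD37 library B of 12 h, and 4 without vehicle library A or B of 24 h. HAX1, which binds the IL-1α precursor, rose to 8.67 ± 0.269 CPM after EMD37, against 4.11 ± 1.09 CPM in vehicle (SD, n = 2 each, log2 1.09 ± 0.23 SE, edgeR adjusted p = 0.00567). At 24 h HAX1 was not called, with 6.52 ± 1.01 CPM after EMD37 and 4.33 ± 0.0285 CPM in vehicle (SD, n = 2 each, log2 0.59 ± 0.24 SE, edgeR adjusted p = 0.0573). CAPN2, a calpain, of the protease class that cleaves that precursor, fell by 0.26 on the log2 scale at 12 h (edgeR adjusted p = 0.0493) and by 0.51 at 24 h (edgeR adjusted p = 7.1e-05). At 24 h 3 rose (17.6% of the list, against 19.6% of all genes tested) and 7 fell (41.2%, against 21.1%), with a median of -0.02. Without vehicle library A or EMD37 library A of 24 h 4 were called, and with DESeq2 6. CASP4, an inflammatory caspase, had 88.5 ± 3.95 CPM after EMD37 and 36.7 ± 1.26 CPM in vehicle (SD, n = 2 each, log2 1.27 ± 0.10 SE, edgeR adjusted p = 3.48e-08). PANX1, a membrane channel, had 147 ± 14.2 CPM after EMD37 and 71.5 ± 0.917 CPM in vehicle (SD, n = 2 each, log2 1.04 ± 0.08 SE, edgeR adjusted p = 6.51e-08). NLRP1, an inflammasome sensor, rose by 0.40 ± 0.11 SE (edgeR adjusted p = 0.00976), and CASP8, an apoptotic caspase, fell by 0.50 (edgeR adjusted p = 0.00448). The other genes that fell, named after their values were seen, were the inflammasome adaptor PYCARD by 1.24, the pore-forming gasdermins GSDMD by 0.51 and GSDME by 0.42, S100A13, which takes part in IL-1α release, by 0.40, and the inflammasome regulator CARD8 by 0.25. Their edgeR adjusted p-values ran from 0.0106 for PYCARD to 0.0438 for CARD8, and the libraries of the groups overlapped for GSDMD. CASP1, the protease that cleaves the IL-1β and IL-18 precursors, was named after its values were seen. It averaged 0.611 CPM after EMD37 and 0.524 CPM in vehicle at 24 h, and 1.08 CPM after EMD37 and 0.767 CPM in vehicle at 12 h (edgeR adjusted p = 0.894 at 24 h and 0.704 at 12 h). These levels rest on few reads, so a change in CASP1 could have been missed.

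Of 17 genes listed as NF-kB subunits and feedback, all were tested. The list also holds CEBPB and CEBPD, C/EBP transcription factor genes that are neither, and the counts include them. It was chosen with earlier results of these data known. At 12 h 9 rose and 0 fell (52.9% called, against 8.70% of all genes tested), with a median log2 fold change of 0.69 beside -0.01 for all genes tested, and 5 were called without vehicle library A, vehicle library B or EMD37 library A of 12 h. At 24 h 16 rose and 0 fell (94.1% called, against 40.7%), with a median of 1.19 beside -0.03. TNFAIP3, which encodes the inhibitory enzyme A20, had 168 ± 4.92 CPM after EMD37 and 16.9 ± 3.71 CPM in vehicle at 24 h (SD, n = 2 each), a rise of 3.32 ± 0.12 SE on the log2 scale (edgeR adjusted p = 4.79e-12). At 12 h it had 27.2 ± 2.09 CPM after EMD37 and 19.9 ± 0.452 CPM in vehicle (SD, n = 2 each), a rise of 0.45 ± 0.13 SE (edgeR adjusted p = 0.0411). NFKBIA, which encodes the inhibitor IκBα, had 21.5 ± 1.72 CPM after EMD37 and 3.17 ± 0.223 CPM in vehicle at 24 h (SD, n = 2 each), a rise of 2.75 ± 0.21 SE (edgeR adjusted p = 3.48e-08), from few reads for this gene. Like IRAK2, both had a called difference between the times. The transcription factor gene CEBPB rose by 1.61 ± 0.13 SE at 12 h (edgeR adjusted p = 2.12e-07) and 2.12 ± 0.13 SE at 24 h (edgeR adjusted p = 2.05e-09). RELB, an NF-kB subunit, rose by 1.01 ± 0.15 SE at 12 h and 1.86 ± 0.15 SE at 24 h, and NFKBIZ, a nuclear cofactor of NF-kB, by 0.45 ± 0.08 SE at 12 h and 0.22 ± 0.08 SE at 24 h (edgeR adjusted p = 0.0455).

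Of 30 genes that IL1 signalling is known to induce, 22 were tested. At 12 h 14 rose and 0 fell (63.6% called, against 8.70% of all genes tested), with a median log2 fold change of 1.06 beside -0.01. At 24 h 19 rose and 0 fell (86.4% called, against 40.7%), with a median of 2.32 beside -0.03. With no filter on low counts, 15 of 30 were called at 12 h, against 1345 of 30765 genes. At 24 h 20 of 30 were called with no filter, against 5874 of 30765 genes. CXCL3, a neutrophil chemokine, had 31.0 ± 2.16 CPM after EMD37 and 4.14 ± 0.176 CPM in vehicle at 12 h (SD, n = 2 each, log2 2.90 ± 0.17 SE, edgeR adjusted p = 5.28e-09). At 24 h CXCL3 had 21.5 ± 2.20 CPM after EMD37 and 2.72 ± 0.342 CPM in vehicle (SD, n = 2 each, log2 2.97 ± 0.19 SE, edgeR adjusted p = 4.36e-09). MMP1, a collagenase, had 716 ± 34.7 CPM after EMD37 and 106 ± 8.29 CPM in vehicle at 24 h (SD, n = 2 each, log2 2.76 ± 0.09 SE, edgeR adjusted p = 1.89e-12). At 12 h it had 170 ± 17.9 CPM after EMD37 and 108 ± 8.46 CPM in vehicle (SD, n = 2 each, log2 0.65 ± 0.09 SE, edgeR adjusted p = 0.000161). These genes also respond to other stimuli, and the lists share all libraries, EMD37 and vehicle, with the members. The counts are therefore given side by side and not as evidence for one another. The lists were also chosen with earlier results of these data known. A share above that of all genes tested may therefore reflect the choice of genes.

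**Figure D4:**
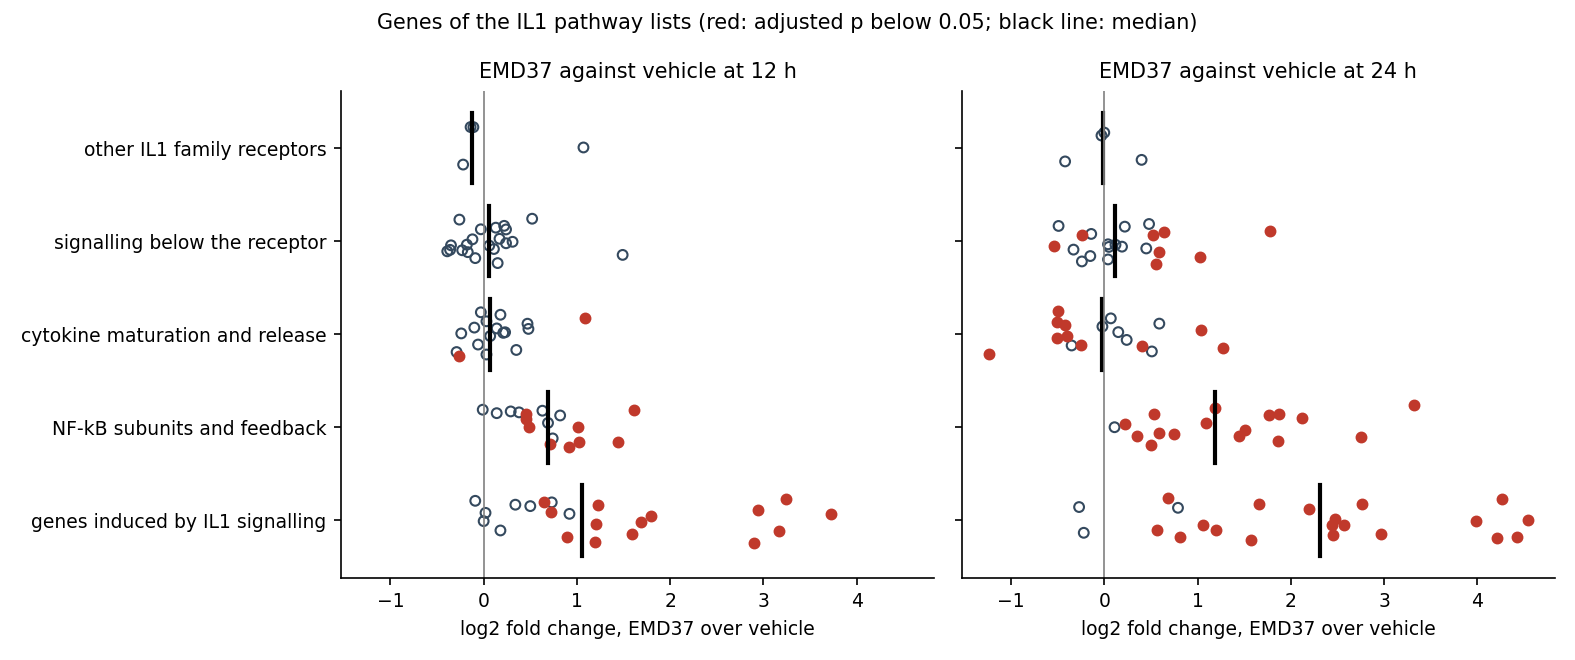
Log2 fold change of EMD37 over vehicle at 12 h (left) and 24 h (right) for the tested genes of the 5 IL1 pathway lists, 1 point per gene, with the median of each list as a black line. Red points passed an adjusted p below 0.05; the medians of the NF-kB list (0.69 at 12 h, 1.19 at 24 h) and of the IL1-induced list (1.06 and 2.32) lie right of 0, and those of the other 3 lists lie between -0.12 and 0.12.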

How the data were processed

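Libraries were made from 1 µg of RNA with a TruSeq V2 kit, per the labels' protocols. The submitters' processing notes name STAR, FastQC and DESeq2 and the build hg38. The program that counted reads is not given in the sources used here. Raw read counts per gene, deposited by the authors, entered every test. The deposited normalized counts (signal) equal those reads over a size factor of each library. The count table, as used here, ended inside a line. For 6912 genes only in the normalized table, whole reads were recovered for 55296 of 55296 values (tolerance 0.01) and entered an alternative. Some genes that are abundant in most cell lines had few reads.

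Genes were named with GENCODE 29. A count minimum of 10 in edgeR 4.0.16 (filterByExpr; R 4.3.3) left 14850 genes to test. TMM factors ran from 0.948 to 1.03, and 1 mean per group left 4 residual degrees of freedom. Quasi-likelihood tests covered 4 comparisons, with Benjamini-Hochberg adjustment over all genes tested. They were also run on simulated counts that gave all genes the same spread, unlike the data, so that run does not give the error rate of these calls. CPM used TMM-scaled library sizes, and their precision rests on the reads given beside them. Alternatives were DESeq2 1.42.0, its size factors, no filter, the compared groups alone, recovered reads, a replicate block and each library left out. The members and lists were chosen with earlier results of these data known. Named list genes were those tested among other ligands and receptors, and up to 5 per other list and time by smallest p among called genes, not all printed.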

Additional observations from a re-analysis of the deposited data

Results flagged for a closer look

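Of the 7 members, IRAK2 had an EMD37 effect that differed between the times by the treatment by time interaction (edgeR with Benjamini-Hochberg adjustment), by 1.72 on the log2 scale (effect at 24 h minus effect at 12 h, adjusted p = 8.1e-06). The same test called 17 further named genes of the pathway. It called 19.0% of the tested signalling list and 11.8% of the maturation and release list, near the 15.9% of all genes tested. That background was 7.96% higher and 7.94% lower. Of the NF-kB list it called 29.4%, and of the IL1-induced list 59.1%. The 17 genes were named for their small p-values in the treatment comparisons, so their shared direction, a larger effect at 24 h, describes a selected set. Below the receptor these were TOLLIP at 0.81, TRAF6 at 0.49, TAB2 at 0.44 and TAB3 at 0.46. Among genes of cytokine maturation and release, they were CASP4 at 1.04 (adjusted p = 9.58e-05) and PANX1 at 1.01 (adjusted p = 3.17e-05). Among NF-kB and feedback genes, they were TNFAIP3 at 2.87 (adjusted p = 6.6e-08), NFKBIA at 1.93, RELB at 0.85, TNIP1 at 0.85 and NFKBIB at 0.73. Among IL1-induced genes, they were MMP1 at 2.10 (adjusted p = 6.6e-08), IL6 at 1.60, BIRC3 at 1.26, PTGS2 at 1.02, CXCL2 at 0.82 and CXCL8 at 0.70. LIF, named after its values were seen, was the 1 gene of that list called in the other direction, at -0.61 (adjusted p = 0.0212), beside 12 called with a larger effect at 24 h and 9 not called. Of the signalling genes 0 were called in this test without vehicle library B or EMD37 library B of 12 h, and 8 without vehicle library A of 24 h.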

How the results depend on the processing

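Of 385 member fold changes under alternatives, 352 kept their direction and side of the threshold, and 18 changed sign without being called in either fit. A call was lost in 6 and gained in 6, 0 called ones reversed, and for 3 DESeq2 gave no adjusted p. The IL1A, IL1B and IRAK2 calls at 12 h, and those of IL1A and IRAK2 at 24 h, held in all 14 alternatives. The number of members called in the interaction ran from 1 to 2 with a library left out. For vehicle at 24 h against 12 h it was 1 with DESeq2's size factors, and from 0 to 1 with a library left out. With a replicate block 3 members were called at 12 h, 3 at 24 h, 1 in the interaction and 0 in vehicle over time. The count at 24 h was less stable. It was 2 with DESeq2, with no filter and in the fit of the 24 h groups alone. With DESeq2's size factors or recovered reads it was 4. Differences of A minus B correlated at -0.04 between the 12 h groups, -0.162 between the 24 h groups and 0.161 between the vehicle groups, so the letters were not taken to pair the samples. Of 275 list counts, 54 moved by over 1.5 times. Over all genes, 2503 were called at 12 h in a fit of those groups alone, against 1292 in the fit of all groups, and 493 to 2229 with a library left out. For vehicle over time these were 125, 890 and 89 to 2493. With 13 to 28 vehicle reads, IL1A and IL1B were the members least well measured.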
